A study of Mus musculus with 15 samples.

Results

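The transcripts of 10 genes that encode subunits of Polycomb repressive complex 2 (PRC2) were followed in mouse embryonic stem cells (mESC) in which Smarcb1 was knocked down. The members were chosen by gene symbol among the 55228 genes listed in each library, and all 10 were found. They comprised 4 core subunits (Ezh1, Ezh2, Eed and Suz12), 4 accessory subunits of the PRC2.1 form (Mtf2, Phf1, Phf19 and Epop) and 2 of the PRC2.2 form (Jarid2 and Aebp2). RNA was sequenced from 81K1 cells, a line based on OG2 that rests on 1 clone, K1. An shRNA against Smarcb1 sits in the Rosa26 locus of these cells under a doxycycline-dependent promoter, so control and knockdown cells carried the same cassette. The 15 libraries formed 5 groups of 3: untreated cells at 48 h (ctrl 48 h) and 240 h (ctrl 240 h), and cells given 1 µg doxycycline per ml of medium every day for 48 h, 72 h or 240 h (kd 48 h, kd 72 h and kd 240 h). No untreated cells were sampled at 72 h among these libraries, so kd 72 h was set against ctrl 48 h, and the comparisons at 48 h and 72 h share their control libraries. At 72 h, the knockdown, the hour of sampling and any difference in handling between the groups cannot be told apart. Doxycycline-treated OG2 cells without the shRNA were not analysed here.

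PRC2 is the enzyme complex that places methyl groups on lysine 27 of histone H3, a mark of silent developmental genes in mESC. Ezh1 or Ezh2 is its catalytic subunit, Suz12 is the scaffold on which the complex assembles, and Eed reads the methyl mark and stimulates the enzyme. The accessory subunits fall into exclusive sets. In PRC2.1 a Polycomb-like protein (Phf1, Mtf2 or Phf19) joins the core and binds CpG-rich DNA, and Epop can join as well and links the complex to Elongin BC. In PRC2.2 the core is joined by Jarid2 and Aebp2, which contact nucleosomes and stimulate the enzyme. Smarcb1 belongs to the BAF chromatin remodelling complexes, whose activity opposes Polycomb silencing at many genes. Only RNA is described here, and levels of the subunit proteins and of the histone mark were not analysed.

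Library totals lay between 11074998 and 14515300 reads. All 15 pairs of replicates differed beyond sampling noise (chi-square per degree of freedom of at most 11.3). The replicate 2 library of kd 48 h, found in the pairs at 11.3 and 9.14, stood apart and had 2.53% mitochondrial reads, where the other libraries had 0.507% to 1.95%. Replicate 3 of ctrl 240 h, in the pairs at 8.89 and 5.02, also lay apart from its group and had the lowest mitochondrial share, 0.507%. The shRNA target Smarcb1 lay at 0.564 to 0.660 FPKM in the group means of the knockdown and at 3.42 to 3.60 FPKM in those of the controls. All 8 markers of embryonic stem cells (Pou5f1, Sox2, Nanog, Zfp42, Esrrb, Dppa5a, Tdgf1 and Utf1) were detected in every library.

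The deposited unit was FPKM, reads per kilobase of the whole gene span, introns included, scaled to library size. Levels of a single gene are given in FPKM below. To set one gene beside another, reads were divided by the exonic length instead, and the introns' reads stay within that value. On this scale of reads per exonic kilobase, scaled to library size, Epop had the highest level among the members in ctrl 48 h, with 312 ± 14.6 (SD, n = 3). Jarid2 followed with 102 ± 1.81. Suz12 with 76.3 ± 2.00 and Eed with 76.0 ± 2.96 did not differ beyond their spread, and Mtf2 had 67.5 ± 2.55. The catalytic gene Ezh2 had 35.8 ± 1.26, and Aebp2 had 10.3 ± 0.846. Ezh1 with 6.05 ± 0.258, Phf19 with 2.74 ± 0.0569 and Phf1 with 1.75 ± 0.299 were the lowest. The order is affected by intronic reads, since the gene span was 19.8 times the exonic length for Jarid2 and equal to it for Epop, a gene without introns in the annotation.

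**Figure D1:**
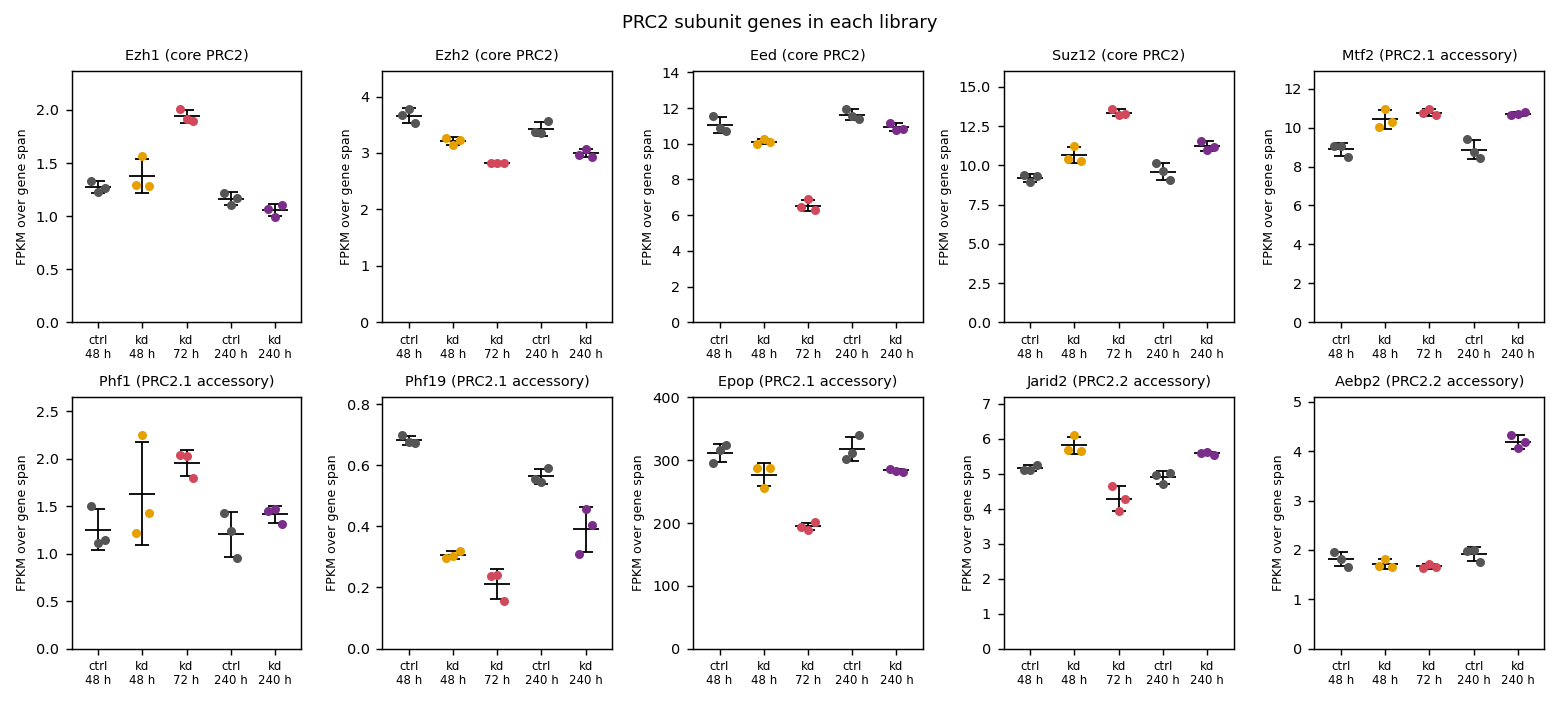
FPKM (vertical axis, from 0) of each PRC2 subunit gene in the 15 libraries, by group (horizontal axis). Points are libraries, and the black dash with its bar is the mean ± SD of 3. Phf19 lay lower in every knockdown library than in every control library, Eed and Epop were lowest in kd 72 h, and Aebp2 in kd 240 h lay between 4.06 and 4.32 FPKM, above all other groups.

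Promoter sequences are shown for the 3 members whose group means spread most (Phf19, Aebp2 and Eed) and for Suz12, the partner of Eed in the core that moved the other way. Each is the run of 250 bases that ends just before a transcription start in RefSeq, 5′ to 3′ on the gene's strand, in build GRCm38.p6. The positions are chr2:34913977-34914226 (minus strand) for Phf19, chr11:79992856-79993105 (plus strand) for Suz12, chr7:89980977-89981226 (minus strand) for Eed and chr6:140624659-140624908 (plus strand) for Aebp2. For Aebp2, which has 3 starts in the table, the window with the highest ratio of observed to expected CpG is shown. Capitals mark a match to the E2F-type motifs TTTCCCGC, TTTGGCGC, TTTCGCGC or TTTGCCGC on either strand. E2F factors are regulators of genes of the cell cycle, among which Ezh2 and Eed are counted.
Phf19: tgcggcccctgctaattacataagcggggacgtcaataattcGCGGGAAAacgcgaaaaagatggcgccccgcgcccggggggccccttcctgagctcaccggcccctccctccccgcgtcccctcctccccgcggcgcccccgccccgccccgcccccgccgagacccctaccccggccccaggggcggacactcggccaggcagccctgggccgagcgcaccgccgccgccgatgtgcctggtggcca
Suz12: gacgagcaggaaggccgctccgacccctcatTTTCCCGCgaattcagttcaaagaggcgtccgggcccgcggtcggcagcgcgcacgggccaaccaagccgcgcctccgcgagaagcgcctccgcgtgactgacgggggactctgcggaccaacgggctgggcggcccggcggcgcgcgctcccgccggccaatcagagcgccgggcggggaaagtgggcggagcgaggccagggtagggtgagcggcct
Eed: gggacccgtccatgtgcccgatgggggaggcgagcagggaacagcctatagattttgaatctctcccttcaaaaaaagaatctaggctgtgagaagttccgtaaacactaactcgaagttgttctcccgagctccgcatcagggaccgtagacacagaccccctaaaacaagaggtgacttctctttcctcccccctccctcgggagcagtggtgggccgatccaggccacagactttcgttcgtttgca
Aebp2: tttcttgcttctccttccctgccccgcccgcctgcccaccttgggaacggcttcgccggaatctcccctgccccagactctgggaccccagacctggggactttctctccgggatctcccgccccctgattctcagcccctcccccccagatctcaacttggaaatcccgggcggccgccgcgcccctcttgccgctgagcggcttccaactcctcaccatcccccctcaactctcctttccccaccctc

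Of the 10 members, 9 had a window in the table, and Epop had none. A motif match was present in the windows of Phf19, with its first base at position -208 from the start, and of Suz12, at position -219. Matches were present in 611 of all 32851 windows, or 1.86%. The windows of Ezh1, Ezh2, Eed, Mtf2, Phf1, Jarid2 and Aebp2 held no such letters. The observed to expected CpG ratio was 0.923 for Phf19, 1.10 for Suz12, 0.652 for Eed, beside a median of 0.373 over all windows. For Aebp2 it was 0.634 in the window shown, which was picked for this ratio, and 0.195 and 0.0743 in its other windows. GC content was 75.2% for Phf19 and 54.4% for Eed, beside a median of 52.4%.

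A gene was called changed in a comparison when its limma adjusted p was under 0.05 and its absolute log2 fold change, on log2(FPKM + 0.1), was above 0.58. Counted by comparison, 1 of 10 members was called at 48 h (Phf19, lower), beside 4.47% of the 16108 genes tested. At 72 h, 4 members were called, namely Eed, Epop and Phf19 lower and Phf1 higher, beside 13.7% of the 16146 genes tested. At 240 h, 1 member was called (Aebp2, higher), beside 9.96% of the 16633 genes tested. With the adjusted p alone and no fold limit, the counts of members were 5, 9 and 6, beside 20%, 56.7% and 38.5% of all genes tested. Most members that passed the limit on p were thus below the fold limit, as were most of all genes that passed it. These counts by p alone depend on single libraries: with each left out in turn they were 1 to 3 at 48 h, 9 to 10 at 72 h and 4 to 6 at 240 h. At 48 h, 3 members (Suz12, Mtf2 and Phf19) passed without replicate 2 of kd 48 h, 2 without replicate 1 of kd 48 h, and 1, Phf19, without any of the other libraries. At 240 h the count of 4 was without replicate 3 of kd 240 h. The libraries of the groups compared did not overlap in FPKM for 7, 9 and 8 members, beside 41.6%, 65.2% and 53.1% of all genes tested. Within the forms of the complex, the median log2 difference at 72 h was 0.09 for the 4 core genes, -0.20 for the 4 PRC2.1 genes and -0.19 for the 2 PRC2.2 genes, beside 0.01 over all genes tested. At 240 h it was -0.11, 0.03 and 0.64, beside 0.01 over all genes, where the last is the midpoint of Aebp2 (1.09) and Jarid2 (0.19).

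**Figure D2:**
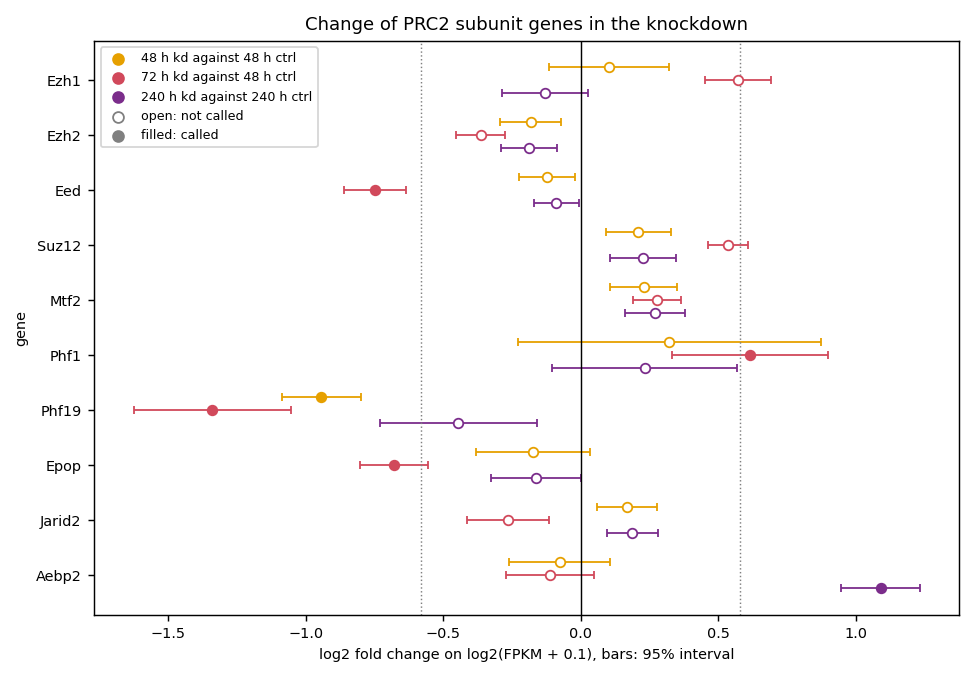
Log2 fold change of each PRC2 subunit gene (horizontal axis, on log2(FPKM + 0.1)) in the 3 comparisons of knockdown with control, one row per gene. Bars are 95% intervals, filled points were called, open points were not, and dotted lines mark the fold limit of 0.58. Phf19 reached -1.34 at 72 h and Aebp2 1.09 at 240 h, while the remaining members lay within 0.75 of no change at all times.

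Among the core subunits, the widest spread of group means belonged to Eed and Ezh1. Eed (chromosome 7, 89954654 to 89980983, minus strand, mm10) was measured at 11.5, 10.9 and 10.7 FPKM in ctrl 48 h, 10.0, 10.3 and 10.1 in kd 48 h, and 6.44, 6.89 and 6.28 in kd 72 h. It was at 11.9, 11.6 and 11.4 FPKM in ctrl 240 h and at 11.2, 10.8 and 10.8 in kd 240 h. The kd 72 h libraries did not overlap with any others, while the other 12 lay between 10.0 and 11.9 FPKM. Eed fell by 0.75 on the log2 scale at 72 h (SE 0.05, limma adjusted p = 7.28e-05), to 59.2% of the ctrl 48 h mean. The log2 difference was -0.12 (95% interval -0.23 to -0.02) at 48 h and -0.09 (-0.17 to -0.01) at 240 h, and neither was called.

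Suz12 (chromosome 11, 79993106 to 80034123, plus strand) had 9.37, 8.92 and 9.29 FPKM in ctrl 48 h, 10.4, 11.2 and 10.3 in kd 48 h, and 13.6, 13.2 and 13.3 in kd 72 h. In ctrl 240 h it had 10.1, 9.63 and 9.04 FPKM, and in kd 240 h 11.6, 10.95 and 11.2. The knockdown libraries were thus higher than their controls at each time, without overlap, and the kd 72 h libraries were the highest of all. The log2 difference of Suz12 was 0.21 at 48 h, 0.53 at 72 h and 0.23 at 240 h, with an SE of 0.05, 0.03 and 0.05 (limma adjusted p = 0.0303, 5.41e-05 and 0.0136). All 3 values passed the limit on p, and none reached the fold limit. At 72 h the 2 genes of the Eed and Suz12 pair, which bind each other directly in the core, thus had differences of opposite sign.

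Ezh2 (chromosome 6, 47530139 to 47595341, minus strand) had 3.68, 3.78 and 3.52 FPKM in ctrl 48 h and 3.27, 3.14 and 3.23 in kd 48 h. It had 2.82 FPKM in each of the kd 72 h libraries, 3.36, 3.35 and 3.56 in ctrl 240 h, and 2.97, 3.07 and 2.94 in kd 240 h. The values of each knockdown group lay below those of its control without overlap. The log2 difference was -0.18 at 48 h, -0.36 at 72 h and -0.19 at 240 h (limma adjusted p = 0.0362, 0.000397 and 0.0145), and no Ezh2 difference reached the fold limit. With any 1 library left out, the 48 h value of Ezh2 no longer passed the limit on p (0.0605 to 0.133). The group mean of Ezh2 in kd 72 h was 77.0% of that in ctrl 48 h.

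Ezh1 (chromosome 11, 101191115 to 101226463, minus strand), the less abundant of the catalytic genes in these libraries, had 1.33, 1.22 and 1.26 FPKM in ctrl 48 h, 1.29, 1.57 and 1.28 in kd 48 h, and 2.01, 1.91 and 1.90 in kd 72 h. In ctrl 240 h it had 1.22, 1.10 and 1.17 FPKM, and in kd 240 h 1.06, 0.996 and 1.11. The kd 72 h libraries lay above all others, and the 48 h and 240 h groups overlapped with their controls. At 72 h the log2 difference of Ezh1 was 0.57 (95% interval 0.45 to 0.69, limma adjusted p = 0.000221), just under the fold limit, and Ezh1 was called under several alternatives, at 0.60 with limma voom on the recovered reads and at 0.69 against ctrl 240 h. The differences were 0.10 (-0.12 to 0.32) at 48 h and -0.13 (-0.29 to 0.03) at 240 h. Without replicate 2 of kd 48 h, the library at 1.57 FPKM, the 48 h difference of Ezh1 was 0.012.

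The accessory genes of PRC2.1 held the member with the widest spread of group means. Phf19 (chromosome 2, 34893757 to 34914026, minus strand) was measured at 0.698, 0.676 and 0.671 FPKM in ctrl 48 h, 0.296, 0.303 and 0.321 in kd 48 h, and 0.239, 0.240 and 0.156 in kd 72 h. In ctrl 240 h it was at 0.555, 0.545 and 0.590 FPKM and in kd 240 h at 0.311, 0.455 and 0.406. These values rest on 136 to 194 reads per control library and 42 to 134 reads per knockdown library. The highest of the knockdown libraries, replicate 2 of kd 240 h, still lay below every control library. On the log2 scale, Phf19 fell by 0.94 at 48 h and by 1.34 at 72 h, with an SE of 0.06 and 0.12 (limma adjusted p = 0.000595 and 0.000232), to 44.9% and 31.0% of the control mean. At 240 h the difference was -0.45 (SE 0.12, adjusted p = 0.0269), or 69.3% of the control mean, which did not reach the fold limit, and its adjusted p lay between 0.0203 and 0.0693 when single libraries were left out. The pseudocount understates changes at so low a level, and with limma voom on the reads the differences were -1.15, -1.72 and -0.54. Without replicate 2 of kd 48 h, the 48 h difference was -0.94 (adjusted p = 0.00252).

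Epop (chromosome 11, 97627389 to 97629702, minus strand) had 296, 317 and 324 FPKM in ctrl 48 h, 288, 255 and 287 in kd 48 h, and 193, 189 and 201 in kd 72 h. In ctrl 240 h it had 302, 312 and 340 FPKM, and in kd 240 h 286, 284 and 282. Every knockdown library lay below the controls of its comparison, and the kd 72 h libraries were apart from the rest. Epop fell by 0.68 on the log2 scale at 72 h (SE 0.05, limma adjusted p = 0.000129), to 62.3% of the control mean. Its differences at 48 h (-0.17, 95% interval -0.38 to 0.03) and 240 h (-0.16, -0.33 to 0.00) did not pass the limit on p.

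Mtf2 (chromosome 5, 108065674 to 108109004, plus strand), the most abundant of the Polycomb-like genes, had 9.08, 9.06 and 8.49 FPKM in ctrl 48 h, 10.0, 10.9 and 10.3 in kd 48 h, and 10.7, 10.96 and 10.6 in kd 72 h. It had 9.40, 8.76 and 8.43 FPKM in ctrl 240 h and 10.6, 10.7 and 10.8 in kd 240 h. The knockdown libraries lay above all control libraries, and the log2 difference was similar at the 3 times, with 0.23, 0.28 and 0.27 (limma adjusted p = 0.0262, 0.00104 and 0.00508), under the fold limit each time. Mtf2 shares 2639 bases with Tmed5 on the other strand, and reads were counted without regard to strand, so a part of its value can belong to Tmed5, which had 2777 to 4170 reads beside 4165 to 6720 for Mtf2.

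Phf1 (chromosome 17, 26933052 to 26937908, plus strand) had 1.501, 1.11 and 1.15 FPKM in ctrl 48 h, 1.22, 2.25 and 1.43 in kd 48 h, 2.04, 2.03 and 1.80 in kd 72 h, 1.42, 1.24 and 0.949 in ctrl 240 h, and 1.45, 1.48 and 1.32 in kd 240 h. The kd 48 h library at 2.25 FPKM is replicate 2, which stood apart above, and without it the 48 h difference went from 0.32 to 0.08 on the log2 scale. Phf1 rose by 0.61 at 72 h (SE 0.12, limma adjusted p = 0.00517), but this call was lost with 4 of the alternatives other than a change of pseudocount, among them the removal of replicate 2 or of replicate 3 of ctrl 48 h (0.54 and 0.56). Phf1 had only 59 to 128 reads per library and shares 4090 of its 4857 bases with Cuta, which had 341 to 581 reads, and 1512 bases with Gm41555, so its values are uncertain.

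In PRC2.2, Aebp2 (chromosome 6, 140622663 to 140678472, plus strand) had 1.96, 1.82 and 1.66 FPKM in ctrl 48 h, 1.67, 1.82 and 1.65 in kd 48 h, and 1.63, 1.72 and 1.65 in kd 72 h. In ctrl 240 h it had 1.99, 2.00 and 1.76 FPKM, whereas in kd 240 h it had 4.32, 4.06 and 4.18. The 12 libraries of the other groups lay within 1.63 to 2.00 FPKM, and the kd 240 h libraries lay above them all. Aebp2 rose by 1.09 on the log2 scale at 240 h (SE 0.06, limma adjusted p = 6.81e-05), to 218% of the control mean, from 1260 to 1379 reads per control library and 3178 to 3286 per knockdown library. Without replicate 3 of ctrl 240 h the rise of Aebp2 was 1.03 (adjusted p = 0.000233). Its log2 differences were -0.08 (95% interval -0.26 to 0.11) at 48 h and -0.11 (-0.27 to 0.05) at 72 h. Aebp2 overlaps no other listed gene.

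Summed markers of other cell types were also higher in kd 240 h, beside the rise of Aebp2, though not every marker was. The summed level of 6 trophoblast markers (Cdx2, Eomes, Elf5, Gata3, Hand1 and Krt8) was 4.52 to 5.15 FPKM in kd 240 h and 2.18 to 2.27 in ctrl 240 h, with 4 and 2 of them at a mean of at least 10 reads. Of the 4 trophoblast markers tested at 240 h, 3 were called higher and 1, Eomes, lower, but Hand1, with 2 to 8 reads in ctrl 240 h and 40 to 56 in kd 240 h, and Cdx2, with 4 to 8 and 28 to 32, reached the minimum of reads only through the group where they were high. For 6 neural progenitor markers the sum was 19.7 to 20.9 against 8.04 to 8.62 FPKM. The neural sum was already higher in kd 48 h (13.1 to 14.9 FPKM) and kd 72 h (17.0 to 18.8) than in ctrl 48 h (7.40 to 8.45). It thus stood beside the changes of Phf19, Eed and Epop too, but it was highest in kd 240 h. There Eed, Epop and Phf19 were at 93.9%, 89.2% and 69.3% of the ctrl 240 h mean. Of the 3 neural markers tested, Sox1 was called higher at the 3 times (1.298, 1.73 and 1.55), whereas Pax6 was called lower at 48 h and 72 h and was not called at 240 h (0.20, limma adjusted p = 0.169). The third, the filament gene Nes, had -0.43 and -0.48 at 48 h and 72 h, under the fold limit, and was called higher at 240 h (0.64). In kd 48 h the sums of the trophoblast markers, 1.15 to 1.51 against 1.78 to 2.06 FPKM, and of the primitive endoderm markers, 0.244 to 0.276 against 0.336 to 0.429 FPKM, lay below ctrl 48 h, and that of the mesoderm markers, 0.909 to 1.13 against 0.617 to 0.738 FPKM, above it, beside the fall of Phf19. The primitive endoderm sum was also lower in kd 72 h (0.278 to 0.335 FPKM), beside the changes of Eed and Epop. For 8 fibroblast markers the sum was 2.92 to 3.54 against 1.84 to 2.22 FPKM, with Lum and Dcn at 0 or 1 read per library, and Thy1 had a difference of -0.43 (limma adjusted p = 0.00521). For 6 mesoderm markers, of which Hand1 is also a trophoblast marker, it was 1.58 to 1.87 against 0.584 to 0.821 FPKM, and for 7 primitive endoderm markers 0.610 to 0.816 against 0.446 to 0.578 FPKM. The part of these cell types in the Aebp2, Phf19, Eed and Epop results was not tested. In bulk RNA, a change in the share of cells and a change in RNA per cell cannot be told apart. Of the 8 stem cell markers, 2 were called lower at 240 h, the orphan receptor gene Esrrb (-0.78, limma adjusted p = 3.71e-05) and Zfp42 (-0.58, adjusted p = 0.000146), and 0 were called higher. Their sum in recovered reads as CPM, not divided by length, was 4785 to 4878 in kd 240 h, below the 5098 to 5547 of ctrl 240 h, while in FPKM, where short genes weigh more, 1777 to 1840 overlapped with 1621 to 1802. In kd 72 h the stem cell sum was 6311 to 6517 CPM against 5509 to 5804 in ctrl 48 h, and 1 of the 8 markers was called, Dppa5a (1.04), with 22128 to 23511 reads against 9529 to 11297, while the list had a median of 0.04.

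Jarid2 (chromosome 13, 44729474 to 44921643, plus strand) had 5.11, 5.10 and 5.26 FPKM in ctrl 48 h, 5.68, 6.10 and 5.65 in kd 48 h, and 4.66, 3.94 and 4.26 in kd 72 h. In ctrl 240 h it had 4.96, 4.69 and 5.03 FPKM, and in kd 240 h 5.60, 5.61 and 5.54. Jarid2 was the member whose values lay above the controls at 48 h and 240 h and below them at 72 h, without overlap each time. The log2 differences were 0.17, -0.26 and 0.19 (limma adjusted p = 0.0474, 0.0113 and 0.0101), all under the fold limit. At 48 h the adjusted p of Jarid2 lay between 0.0605 and 0.152 whichever library was left out.

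Between the control groups, 0 members were called by limma, beside 0.413% of the 16215 genes tested. No member passed the adjusted p alone (2.74% of all genes did) or the call on limma voom (1.36%), and 1 member, Phf19, had an unadjusted p under 0.05, beside 25.1% of all genes tested. The largest of these differences belonged to Phf19, with -0.24 (95% interval -0.38 to -0.09, limma adjusted p = 0.0787), and the control groups did not overlap for 3 members (Phf19, Ezh1 and Jarid2), beside 31.8% of all genes tested. When the knockdown effects at 48 h and 240 h, each with its own controls, were averaged over 12 libraries, 1 member was called (Phf19, -0.69, SE 0.07, limma adjusted p = 1.48e-05), beside 5.66% of the 16403 genes tested. In the same fit Ezh2 (-0.19), Eed (-0.11), Epop (-0.17), Suz12 (0.22), Mtf2 (0.25), Jarid2 (0.18) and Aebp2 (0.51) passed the limit on p and not the fold limit, so that 8 members passed the limit on p, beside 43.8% of all genes tested.

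The effect at 240 h was then tested against that at 48 h in an interaction term over these 12 libraries. For Aebp2 the effect differed by 1.17 (SE 0.10, limma adjusted p = 3.02e-05), and it was the only member called, beside 6.85% of all genes tested. For Phf19 the effect was smaller at 240 h, by 0.50 on the log2 scale (SE 0.13, adjusted p = 0.0264), which passed the limit on p, as did 18.4% of all genes tested, and not the fold limit. For Mtf2 the effects differed by 0.04 (95% interval -0.11 to 0.19), for Suz12 by 0.02 (-0.14 to 0.17), for Ezh2 by -0.01 (-0.13 to 0.12) and for Jarid2 by 0.02 (-0.10 to 0.14). The intervals were wider for Epop (0.01, -0.21 to 0.23), for Ezh1 (-0.23, -0.48 to 0.01) and for Phf1 (-0.09, -0.74 to 0.56), and for Eed the difference was 0.03 (-0.08 to 0.15).

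The durations of knockdown were also compared directly, which uses no control, though time in culture differs too. From kd 48 h to kd 72 h, 1 member was called (Eed, -0.62, limma adjusted p = 0.000665), beside 7.17% of 16104 genes tested. The Eed call was lost at -0.57 when values were rescaled to TPM and at -0.56 with a pseudocount of 1 FPKM. Epop (-0.51), Jarid2 (-0.43), Phf19 (-0.40), Ezh2 (-0.18), Ezh1 (0.47) and Suz12 (0.33) passed the limit on p and not the fold limit, so that 7 members passed it, beside 36.6% of all genes. With single libraries left out, the adjusted p of Phf19 reached 0.114 and passed the limit only without replicate 3 of kd 72 h, where the difference was -0.26 (adjusted p = 0.0436). From kd 72 h to kd 240 h, 4 members were called, beside 15.2% of 16562 genes tested: Eed (0.73), Phf19 (0.66) and Aebp2 (1.28) were higher and Ezh1 (-0.82) was lower at 240 h. The limma adjusted p was 4.78e-05 for Eed, 0.0119 for Phf19, 1.21e-05 for Aebp2 and 7.26e-05 for Ezh1. Counted by p alone, 8 members passed, beside 59.9% of all genes. The Phf19 call was lost without replicate 3 of kd 72 h (0.52) or replicate 2 of kd 240 h (0.56). In kd 240 h the group mean of Eed was 93.9%, and that of Ezh1 90.6%, of the ctrl 240 h mean.

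Ratios within a library, taken per exonic kilobase, show how the make-up of the PRC2 transcripts differed between groups and do not depend on the scaling of a library. Ezh1 amounted to 16.9% ± 1.02 (SD, n = 3) of Ezh2 in ctrl 48 h, 20.9% ± 2.92 in kd 48 h (24.3% in replicate 2, 19.2% and 19.3% in the others), 33.5% ± 1.01 in kd 72 h, 16.5% ± 0.973 in ctrl 240 h and 17.2% ± 1.29 in kd 240 h. The kd 72 h libraries lay between 32.8% and 34.6%, above all others. Eed amounted to 99.6% ± 3.39 of Suz12 in ctrl 48 h and 101% ± 3.34 in ctrl 240 h, and to 78.9% ± 2.85, 40.6% ± 2.27 and 80.6% ± 0.796 in kd at 48 h, 72 h and 240 h. For this core pair the knockdown libraries, 39.2% to 81.5%, did not overlap with the control libraries, 95.7% to 104%. Aebp2 amounted to 21.5% ± 0.719 of Jarid2 in kd 240 h and to 8.36% to 12.5% in the 12 libraries of the other groups. Phf19 amounted to 4.06% ± 0.117 and 3.37% ± 0.296 of Mtf2 in ctrl at 48 h and 240 h, and to 1.56% ± 0.0930, 1.04% ± 0.226 and 1.93% ± 0.358 in kd at 48 h, 72 h and 240 h. The ratios are given with their spread and were not tested, and an exact permutation test between groups of 3 could not give a two-sided p below 0.1.

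**Figure D3:**
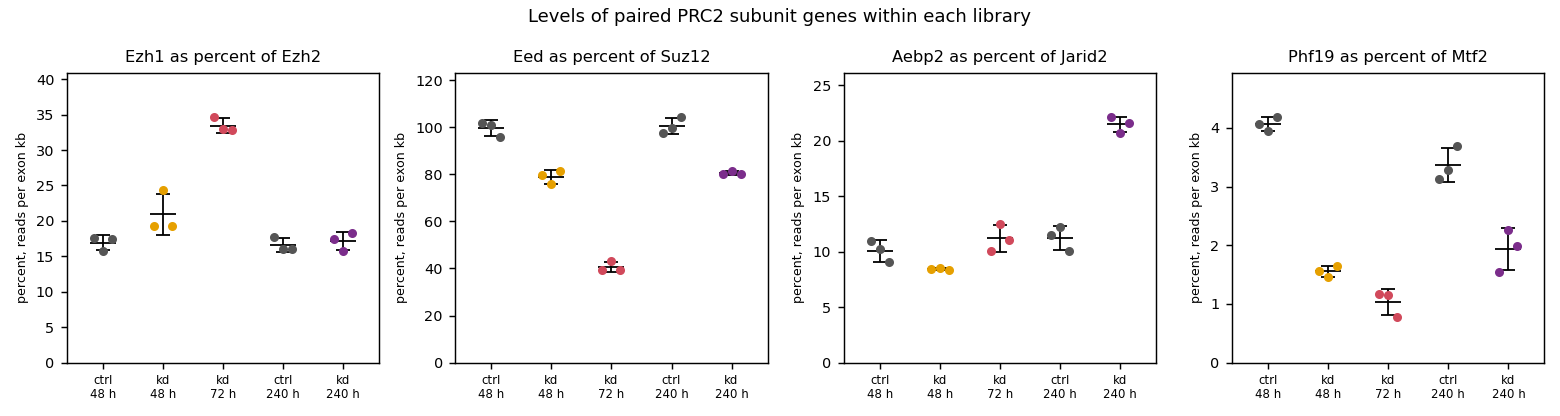
Level of one PRC2 subunit gene as a percentage of its partner within each library (vertical axis, from 0, reads per exonic kilobase), by group (horizontal axis). Points are libraries, and the black dash with its bar is the mean ± SD of 3. Eed over Suz12 had a mean of 99.6% in ctrl 48 h and 40.6% in kd 72 h, and Aebp2 over Jarid2 was 21.5% in kd 240 h alone.

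Of 7 further genes tied to PRC2 or to its mark, 6 were listed and tested. They were Rbbp4 and Rbbp7, histone chaperones that are also core subunits, Lcor and Lcorl, whose loci encode PRC2.1 partners, and the demethylases Kdm6a and Kdm6b, which remove the methyl groups. At 72 h, 1 of the 6 was called (Kdm6b, 0.62, SE 0.05, limma adjusted p = 0.000154), beside 13.7% of all genes tested, and none were called at 48 h or 240 h, beside 4.47% and 9.96%. Kdm6b had 4.99, 4.45 and 4.79 FPKM in ctrl 48 h and 7.57, 7.20 and 7.22 in kd 72 h, without overlap. In kd 240 h it had 4.02, 4.24 and 4.26 FPKM, below the 5.55, 5.76 and 4.93 of ctrl 240 h (-0.37, adjusted p = 0.00607). The log2 differences at 48 h, 72 h and 240 h were 0.03, 0.11 and 0.37 for Rbbp7, -0.09, -0.12 and -0.03 for Rbbp4, 0.39, 0.48 and 0.15 for Lcor (which also differed by 0.43 between ctrl 240 h and ctrl 48 h, adjusted p = 0.0444), -0.01, 0.05 and -0.17 for Lcorl, and -0.13, -0.28 and 0.04 for Kdm6a.

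Of 40 developmental regulators known as targets of PRC2 in mESC, all were listed, but most had too few reads to be tested. At 48 h 9 were tested, with 0 called higher and 2 lower, the neural regulator Pax6 (-1.03, limma adjusted p = 0.00112) and the T-box gene Eomes (-0.60, adjusted p = 0.00594). At 72 h 10 were tested, with 2 called higher, among them the cell cycle inhibitor Cdkn2a (0.68, limma adjusted p = 0.000797), and 1 called lower, again Pax6 (-1.20, adjusted p = 2.8e-05). At 240 h 15 were tested, and the 4 called higher included Hand1 (2.31), the caudal-type gene Cdx2 (1.35) and the LIM homeobox gene Lmx1b (0.71), while Eomes (-0.86) was the 1 called lower. Hand1, Cdx2 and Eomes are also among the trophoblast markers above. The counts stand beside 4.47%, 13.7% and 9.96% of all genes tested. At 240 h the number tested and the number called higher are tied, since Hand1 and Cdx2 were tested only for their reads in kd 240 h, and nothing is read from that count. At 48 h, 72 h and 240 h, limma voom on the recovered reads called 0, 4 and 7 targets higher and 4, 3 and 3 lower. Calls over all genes rose with it too, from 720, 2215 and 1656 to 1485, 3642 and 2998, so nothing is read from the larger counts. The median log2 difference of the targets tested was -0.21 at 48 h and 0.09 at 72 h, over different sets of genes, beside 0.01 over all genes at each time.

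The genes whose levels were most like those of Phf19, the member with the widest spread of group means (1.34 on the log2 scale), were sought among 11015 genes that averaged 100 reads or more. Over the 15 libraries, Pearson's r of log2(FPKM + 0.1) was 0.971 for Rab14, a small GTPase of membrane traffic, 0.964 for Perp, a gene of cell adhesion, 0.960 for Coro1c, an actin-binding protein, 0.959 for the adhesion receptor Adgrg1 and 0.954 for the receptor phosphatase Ptpru. The libraries fall into knockdown and control groups that all these genes separate, so r describes the pattern over the groups. Perp ranged from 5.74 to 6.42 FPKM in ctrl 48 h, from 3.07 to 3.29 in kd 48 h and from 2.04 to 2.13 in kd 72 h, and from 3.67 to 3.85 in kd 240 h, below the 4.88 to 5.35 of ctrl 240 h. Rab14 had the highest r but a smaller range, with 5.70 to 6.02 FPKM in ctrl 48 h and 4.21 to 4.55 in kd 72 h.

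**Figure D4:**
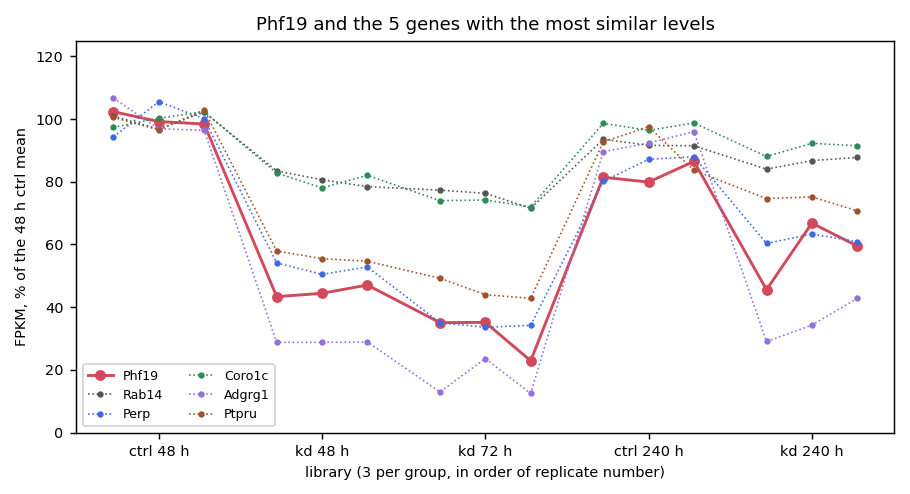
FPKM of Phf19 (red line) and of the 5 genes with the most similar pattern (dotted lines), as a percentage of each gene's own ctrl 48 h mean (vertical axis, from 0), in the 15 libraries (horizontal axis, 3 per group). Each gene is lowest in kd 72 h, where the group mean of Phf19 was 31.0% of its ctrl 48 h mean.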

How the data were processed

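RNA-seq of total RNA was analysed in 15 libraries of 81K1 mESC, with single-end Illumina reads. The submitters' processing notes name STAR 2.7.0c, DESeq2 1.30.0, R 4.0.3 and the build mm10 (GRCm38.p6). A GENCODE release is named for the ChIP-seq peaks, and the annotation used for counting is not given in the sources used here. The authors deposited FPKM values per gene and library. Multiplied by the gene span and a library total, 100% of the values above 0 gave whole reads (tolerance 0.001), so reads had been counted over introns too irrespective of strand (in 415 of 415 nested pairs on opposite strands reads of the inner gene never exceeded those of the outer one). Identifiers came from GENCODE M21 (96.5% of the listed genes matched) and promoter windows from RefSeq (GRCm38.p6).

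The labels gave each library its group and number. Nothing there says that replicates were separate cultures, so p-values measure the spread between these libraries, which may be technical. Same-numbered libraries did not deviate together in each comparison (r from -0.464 to 0.470 over 11016 genes), so no block was used. Testing used limma 3.58.1 (R 4.3.3, trend, two-sided) on log2(FPKM + 0.1), over genes that averaged 10 or more recovered reads in the libraries compared, with Benjamini-Hochberg adjustment over all genes tested. All adjusted p-values in the text are from limma. All 10 members passed this minimum in every comparison. The minimum is in reads because an FPKM over the span leaves out long genes. Calls used the limits of the study, 0.05 for the adjusted p and 0.58 for the size of the log2 fold change. Alternatives were other pseudocounts, minimums, scalings and thresholds, limma voom on the recovered reads, removal of a trend with gene span and GC content, a replicate block, 1 fit of all libraries, another control for 72 h, and each library left out. Tests were tested on simulated data.

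The members and the gene lists were chosen with earlier results of these data known. Every member is named; of the target list, called genes at 72 h (those at 48 h and 240 h were added after their values were seen, and some called genes of the list are not reported here); and the 5 genes with the highest r to the member of widest range, predicted genes left out. Python 3.11.15 (pandas 2.3.3, numpy 2.4.6, matplotlib 3.10.9) served for tables and figures. Reads carry no molecular identifiers, and the study's chromatin data were not analysed here.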

Additional observations from a re-analysis of the deposited data

Results flagged for a closer look

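A pair of PRC2 genes stood out because the knockdown effect at 240 h differed from that at 48 h in a direct test over the 12 libraries with matched controls. For Aebp2 the effect was 1.17 higher at 240 h on the log2 scale (limma adjusted p = 3.02e-05), and it kept its call under every alternative run, with values from 0.88 (pseudocount of 1 FPKM) to 1.24 (TPM). Each of the 3 libraries of kd 240 h lay above each of the other 12. For Phf19 the effect was 0.50 higher, that is a smaller reduction, at 240 h (adjusted p = 0.0264). This was under the fold limit, so Phf19 was not called. Over the alternatives the value for Phf19 lay between 0.19 (pseudocount of 1 FPKM) and 0.62 (TPM) and its adjusted p between 0.00148 and 0.0733, highest with no minimum of reads. With single libraries left out the value was 0.40 without replicate 2 and 0.62 without replicate 1 of kd 240 h, which was the lowest of its group, and the adjusted p reached 0.0642, past the limit, without replicate 3 of that group. Phf19 was at 83 to 134 reads per library in that group.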

How the results depend on the processing

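Under the alternatives, 912 of 943 values for the 55 member results from kd against ctrl, or with an adjusted p under 0.05 elsewhere, kept their direction and their side of the thresholds, 15 lost a call, 16 gained one and 0 changed direction. Of 460 values for the 25 remaining member results, 41 changed sign and 0 were called. The counts of members called moved mainly with the size limits. A pseudocount of 1 FPKM gave 0 members at 48 h and 2 at 72 h, 0 from kd 48 h to kd 72 h, 2 from kd 72 h to kd 240 h and 0 for the averaged effect. Each of these counts but that from kd 48 h to kd 72 h, where Eed lost its call, fell through Phf19, whose level is below that pseudocount, with Phf1 at 72 h and Ezh1 from kd 72 h to kd 240 h. Calls over all genes fell too, from 720, 2215, 1155, 2521 and 928 to 188, 684, 306, 828 and 238 in the order above. With no fold limit the counts were 5 at 48 h, 9 at 72 h, 6 at 240 h, 7 from kd 48 h to kd 72 h, 8 from kd 72 h to kd 240 h, 2 for the difference between 240 h and 48 h, and 8 for the average. In that order, 20%, 56.7%, 38.5%, 36.6%, 59.9%, 18.4% and 43.8% of all genes tested passed. In comparisons with a kd group, a minimum of 0.5 FPKM left 9 members to test, without Phf19, and gave 0 at 48 h and 0 for the average. Over all genes that minimum gave 456 of 11420 at 48 h and 607 of 11412 for the average. From kd 48 h to kd 72 h, TPM gave 0, beside 1941 of 16104 genes called. Removal of the trend with span and GC content gave 2 there, beside 1015 of 15770. For the difference between 240 h and 48 h, a pseudocount of 0.01, TPM and limma voom each gave 2. They called 1619, 1586 and 1708 of all 16403 genes. With single libraries left out the counts ranged from 1 to 1 at 48 h, 3 to 5 at 72 h, 1 to 1 at 240 h, 1 to 1 from kd 48 h to kd 72 h, 3 to 4 from kd 72 h to kd 240 h, 1 to 2 for the difference (2 without replicate 1 of kd 240 h) and 1 to 1 for the average. At 72 h, Phf1 lost its call with centring on the median (0.55) or the trend removed (0.48), Suz12 gained one with the trend removed (0.59), and Epop was at -0.89 there. Under the replicate block, the counts of members called were 1, 4 and 1 at 48 h, 72 h and 240 h and 0 between the control groups, as without the block; the numbers were not shown to pair the libraries. Over all genes, rescaling to TPM turned the split from kd 48 h to kd 72 h from 645 higher and 510 lower to 1281 and 660, that from kd 72 h to kd 240 h from 1095 and 1426 to 2091 and 1546, and that between the controls from 53 and 14 to 253 and 25, with medians over all genes of 0.08, 0.06 and 0.09. Centring on the median instead gave 530 higher and 624 lower from kd 48 h to kd 72 h, and at 72 h 1067 and 1157 in place of 1309 and 906. The cause of these moves was not tested. Few reads stood behind Phf19 and Phf1.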
